A study of Mus musculus with 4 samples.

Results

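Complement is a set of secreted and membrane-bound proteins that tag cells and particles for removal. The group described here holds 9 mouse genes of that system, given by symbol: C3, C4b, C2, C1s, C1ra, Cfb, Masp1, Serping1 and Cd55. All 9 were among the 23235 symbols listed in the deposited tables. They were selected on their FPKM values and log2 differences between these libraries, so their levels and differences are given as a description and none was tested.

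RNA sequencing of polyadenylated RNA was carried out on primary mouse embryo fibroblasts of the C57BL/6 strain, with 1 library for each of 4 genotypes. The labels gave these as Wild-type, Gadd45-/-, G3 Terc-/- and G3 Gadd45-/-Terc-/- (dKO). The series' design text names the first deleted gene as Gadd45a, a stress-induced gene, and Terc encodes the RNA template of telomerase, so that mice bred without it for generations (G3 for the third) have short telomeres. The labels state no treatment, passage, embryo age or number of embryos behind a culture. The comparisons ask how Gadd45a deficiency acts with telomerase RNA present and absent. With no second culture of any genotype, no difference below has a replicate check.

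In complement, the C1 complex (C1q with the proteases C1r and C1s) cleaves C4 and C2 in the classical pathway. Proteases of the MASP family do so in the lectin pathway, though not every MASP cleaves both. The cleavage products form an enzyme that splits C3, the component on which all pathways meet, and factor B (Cfb) supplies the protease of a second such enzyme in the alternative pathway. C1 inhibitor (Serping1) blocks C1r and C1s, and CD55 on the cell surface speeds the decay of the C3-splitting enzymes. Most circulating complement comes from the liver, but fibroblasts and macrophages also make several components, and inflammatory cytokines are known to induce them.

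Several facts of the libraries bear on every value. Values are FPKM, which counts fragments for each kilobase of a transcript relative to all mapped fragments, as deposited, and the depth, estimated from the spacing of low values, was 19200000 to 19900000 fragments per library. Intervals are 95% Poisson intervals on the estimated fragments and cover counting error only, not the spread between cultures. Gadd45a mRNA went against the labels, at 22.9 FPKM in the wild-type library, 33.9 FPKM in the library labelled Gadd45-/-, 31.4 FPKM in the G3 Terc-/- library and 45.1 FPKM in the library labelled dKO. One value per gene does not show the deleted exons, so those libraries are named by their labels. Terc was at 0.530 FPKM in the wild-type library, 0.259 FPKM in that labelled Gadd45-/-, and listed at 0 in both G3 libraries. With values this low in every library, it is a weak check of the labels. Sex also differed, with the Y-linked Ddx3y at 16.4 FPKM in the library labelled Gadd45-/- and at most 0.0228 FPKM in the others. Fibroblast markers were abundant throughout, their 9 genes summing to between 7269 FPKM in the G3 Terc-/- library and 12230 FPKM in the library labelled Gadd45-/-.

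Every one of the 9 genes had its highest FPKM in the G3 Terc-/- library. Differences were taken as log2(FPKM + 1) in the first library minus the second, and "higher" or "lower" below means a difference of at least 1 or at most -1. Against wild type, 8 of 9 were higher in the G3 Terc-/- library and none lower, with a median difference of 2.75. Over all 22499 symbols compared, 5.7% were higher and 3.32% lower, and the median was 0. In the library labelled dKO, 7 of 9 were lower than in the G3 Terc-/- library and none higher, with a median of -1.62, where 2.79% of all genes were lower and 0.853% higher. These comparisons share the G3 Terc-/- library, so the high level of that library enters both.

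In each of the other comparisons fewer of the 9 were past the rule. The library labelled dKO still exceeded wild type for 4 of 9 genes (C1s, C1ra, Serping1 and Cd55; all genes 2.03% higher and 1.56% lower), with a median of 0.69 and all 9 differences positive. The difference of C1ra there, 1.03, became 0.97 after quantile normalization. It exceeded the library labelled Gadd45-/- for 1 of 9 (Cd55; all genes 1.33% higher and 1.29% lower), with a median of 0.66. Between the library labelled Gadd45-/- and wild type none of the 9 was past the rule in either direction (all genes 0.187% higher and 0.138% lower), with a median of 0.10. With single libraries no test stands beside this 0. C4b was the only one of the 9 with a mean FPKM under 1 over the libraries.

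**Figure D1:**
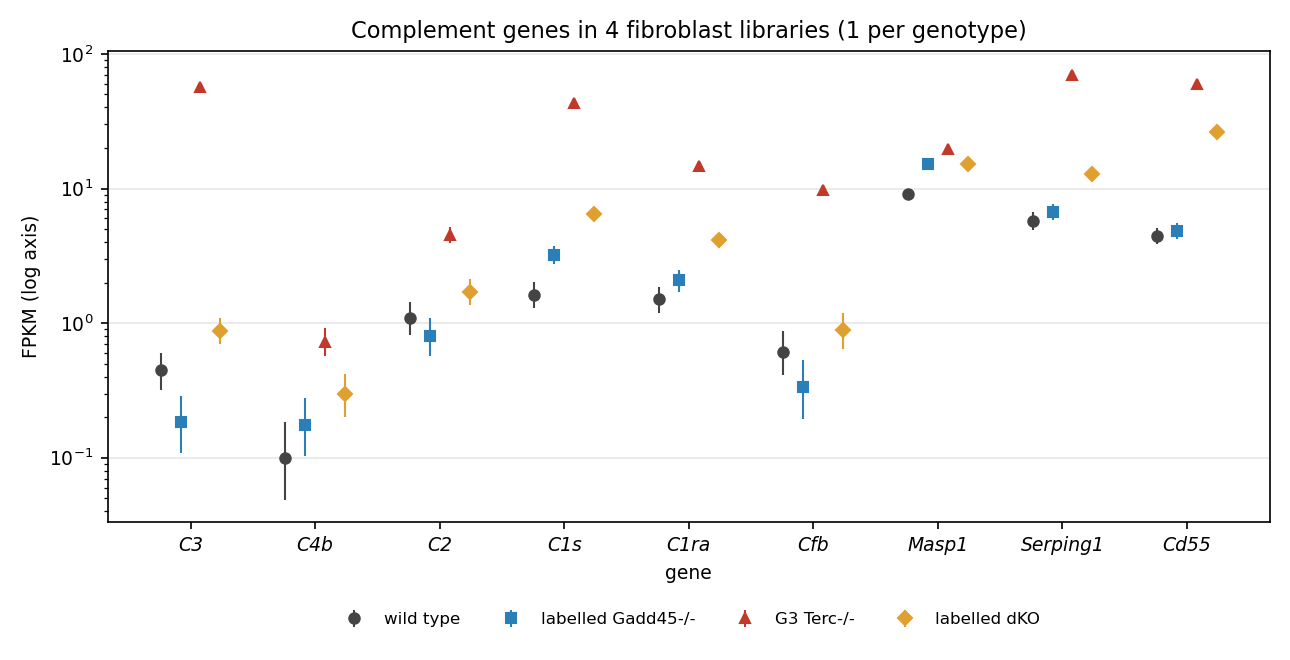
FPKM (log axis) of the 9 complement genes in each library, 1 symbol per library, with bars for the 95% counting interval where wider than the symbol. The G3 Terc-/- library (triangles) is highest for every gene, from 0.723 FPKM for C4b to 70.1 FPKM for Serping1.

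C3, whose cleavage releases C3a and lets C3b bind to surfaces, had the largest difference of the group. It stood at 0.447 FPKM in the wild-type library, 0.183 FPKM in the library labelled Gadd45-/-, 56.3 FPKM in the G3 Terc-/- library and 0.874 FPKM in the library labelled dKO. Only the G3 Terc-/- library held more than 1 FPKM. The ratio to wild type there was 126 (counting interval 93.9 to 177), which ranked seventh of all genes by difference (5.31). The library labelled dKO was 64.4-fold lower than the G3 Terc-/- library (51.8 to 80.4), a difference of -4.94 and the ninth lowest of all genes. Some 5395 fragments lay behind the high value, against 42, 18 and 85 in wild type and the libraries labelled Gadd45-/- and dKO. Low as they are, those values differed beyond counting error, the library labelled dKO holding 1.96 times the wild-type level (1.35 to 2.94) and the library labelled Gadd45-/- 0.409 times (0.224 to 0.734).

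Cfb encodes factor B, which binds C3b and carries the protease of the alternative pathway. Its values were 0.605 FPKM in the wild-type library, 0.335 FPKM in the library labelled Gadd45-/-, 9.77 FPKM in the G3 Terc-/- library and 0.888 FPKM in the library labelled dKO. The order of the libraries was that of C3, with the G3 Terc-/- library alone above 1 FPKM. It was 16.1 times the wild-type level (11.0 to 23.9), and the library labelled dKO was 11.0-fold below it (8.14 to 15.5). Wild type and the library labelled dKO did not differ beyond counting error (ratio 1.47, 0.883 to 2.37).

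C1s and C1ra, the serine proteases of the C1 complex, had the same order of libraries, with wild type lowest. C1s, listed under that symbol and now named C1s1, stood at 1.63 FPKM in the wild-type library, 3.22 FPKM in the library labelled Gadd45-/-, 43.3 FPKM in the G3 Terc-/- library and 6.48 FPKM in the library labelled dKO. C1ra, which activates C1s, had values of 1.50, 2.07, 14.7 and 4.11 FPKM across those libraries. The G3 Terc-/- level was 26.6 times wild type for C1s (21.4 to 33.3) and 9.82 times for C1ra (7.81 to 12.5). In the library labelled dKO both remained above wild type, by 3.98-fold for C1s (3.13 to 5.09) and 2.74-fold for C1ra (2.12 to 3.59). C1s was also 1.98 times higher in the library labelled Gadd45-/- than in wild type (1.52 to 2.59), a difference of 0.68 that stayed within the size rule. The proteases did not keep a fixed proportion, since FPKM of C1s per FPKM of C1ra was 1.08 in wild type, 1.55 in the library labelled Gadd45-/-, 2.94 in the G3 Terc-/- library and 1.57 in the library labelled dKO. Their near-identical copies were hardly seen, with C1rb listed at 0 in all libraries and C1s2, listed as Gm5077, at no more than 0.227 FPKM, though fragments shared with a copy may have been divided.

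C4b and C2, the substrates of C1s, were the lowest of the group in the G3 Terc-/- library. C4b stood at 0.0987 FPKM in the wild-type library, 0.174 FPKM in the library labelled Gadd45-/-, 0.723 FPKM in the G3 Terc-/- library and 0.299 FPKM in the library labelled dKO, which is 10, 18, 73 and 30 estimated fragments. The G3 Terc-/- value was 7.32 times wild type (3.71 to 15.7), but on the log2(FPKM + 1) scale the difference was 0.65 and within the size rule. The related C4a, whose sequence is close enough to share fragments, stayed at 0.0485 to 0.0972 FPKM. C2, the protease that joins C4b, stood at 1.09, 0.80, 4.53 and 1.70 FPKM in the order given for C4b. It was 4.15 times wild type in the G3 Terc-/- library (3.05 to 5.75) and 2.66-fold lower in the library labelled dKO than there (2.03 to 3.44). That last difference, -1.03, lay just past the rule and was -0.99 after median-of-ratios scaling and -0.95 after quantile normalization. FPKM of Cfb per FPKM of C2, its paralog and neighbour, was 2.16 in the G3 Terc-/- library and 0.418 to 0.554 in the others. The genes adjoin on the reference, so reads running from one into the other may also have been divided.

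Masp1 had the smallest ratio of the group between the G3 Terc-/- library and wild type, and another order of libraries. Its transcripts encode the MASP family proteases MASP-1 and MASP-3, which a single value per gene does not separate. It stood at 9.04 FPKM in the wild-type library, 15.3 FPKM in the library labelled Gadd45-/-, 19.6 FPKM in the G3 Terc-/- library and 15.2 FPKM in the library labelled dKO. Wild type was the low library, and the libraries labelled Gadd45-/- and dKO did not differ beyond counting error (ratio of dKO to Gadd45-/- 0.994, 0.926 to 1.07). The G3 Terc-/- level was 2.16 times wild type (2.0 to 2.35), a difference of 1.03 that became 0.99, within the rule, after quantile normalization. The library labelled Gadd45-/- was 1.69 times wild type (1.56 to 1.84), a difference of 0.70. Masp1 was the most abundant of the 9 in wild type and in the library labelled Gadd45-/-, with 36.8% and 45.6% of their summed FPKM, and stood behind Serping1, Cd55, C3 and C1s in the G3 Terc-/- library.

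The inhibitors were high in the G3 Terc-/- library along with the proteases. Serping1 stood at 5.74 FPKM in the wild-type library, 6.66 FPKM in the library labelled Gadd45-/-, 70.1 FPKM in the G3 Terc-/- library and 12.9 FPKM in the library labelled dKO. The G3 Terc-/- level was 12.2 times wild type (10.4 to 14.3), and the library labelled dKO was 5.44-fold lower (4.89 to 6.07) and 2.25 times wild type (1.87 to 2.70). Wild type and the library labelled Gadd45-/- did not differ beyond counting error (ratio 1.16, 0.944 to 1.43). FPKM of C1s per FPKM of its inhibitor was 0.284 in wild type, 0.483 in the library labelled Gadd45-/-, 0.618 in the G3 Terc-/- library and 0.502 in the library labelled dKO, so the inhibitor's mRNA exceeded that of C1s in each.

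Cd55 was the most abundant of the 9 genes in the library labelled dKO. It stood at 4.43 FPKM in the wild-type library, 4.83 FPKM in the library labelled Gadd45-/-, 59.3 FPKM in the G3 Terc-/- library and 26.2 FPKM in the library labelled dKO. Both G3 libraries were thus high and both others low. The G3 Terc-/- level was 13.4 times wild type (11.6 to 15.5), the library labelled dKO was 5.91 times wild type (5.07 to 6.88) and 2.27-fold below the G3 Terc-/- library (2.12 to 2.43). Its difference of 2.22 between the library labelled dKO and the library labelled Gadd45-/- ranked 22nd of all genes. FPKM of Cd55 per FPKM of Serping1 was 0.725 to 0.846 in the other libraries and 2.03 in the library labelled dKO. The copy Cd55b, listed as Daf2, stood at 0.0457 FPKM, 0, 0.498 FPKM and 0.492 FPKM in the usual order.

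**Figure D2:**
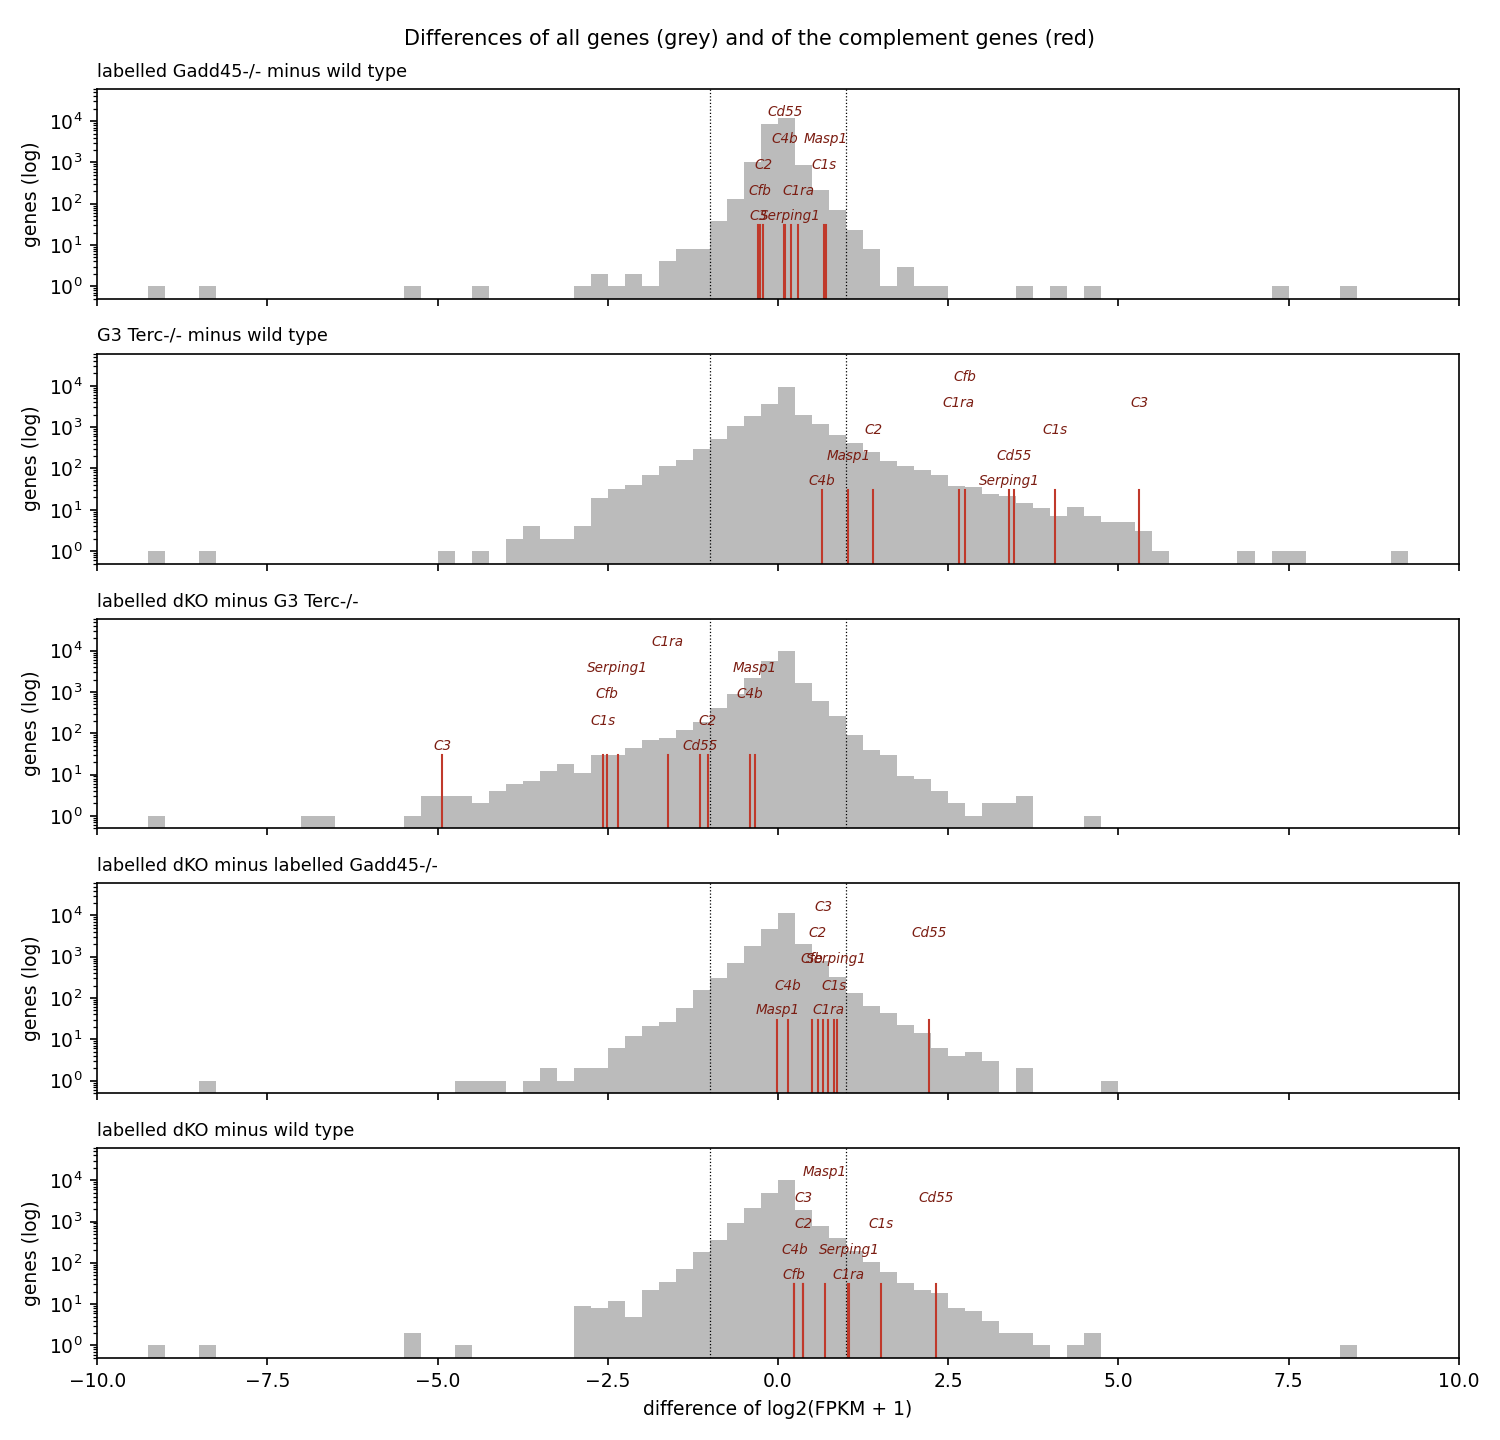
Differences of log2(FPKM + 1) in the 5 comparisons, with all 22499 symbols as grey histograms (log count axis), the 9 complement genes as red lines and dotted lines at the size rule. In the G3 Terc-/- minus wild-type panel 8 of the 9 lie at or beyond 1, and in the panel of the library labelled dKO minus the G3 Terc-/- library 7 lie at or below -1.

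The genes separated in how much of the G3 Terc-/- difference was present in the library labelled dKO. The difference of the library labelled dKO from wild type was expressed as a percentage of that of the G3 Terc-/- library, for the 8 genes past the rule. C3 and Cfb stood lowest, at 7.04% and 8.53%. C2 (26.5%), Serping1 (30.7%), C1s (37.0%) and C1ra (38.9%) lay between, and Masp1 and Cd55 both stood at 66.9%. Over the 1282 genes higher in the G3 Terc-/- library the median was 40.8%, with quartiles of 19.4% and 63.7%. C3 and Cfb thus lay below the lower quartile, and Masp1 and Cd55 above the upper one. For Masp1 the library labelled Gadd45-/- differed from wild type by 0.70, beside 0.69 in that labelled dKO. For Cd55 these differences were 0.10 and 2.32, and for C1s 0.68 and 1.51. With a pseudocount of 0.1 FPKM the values of C3 and Cfb were 12.5% and 12.8%. The quartiles were taken with a pseudocount of 1 FPKM only, so no placement is given for these values.

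**Figure D3:**
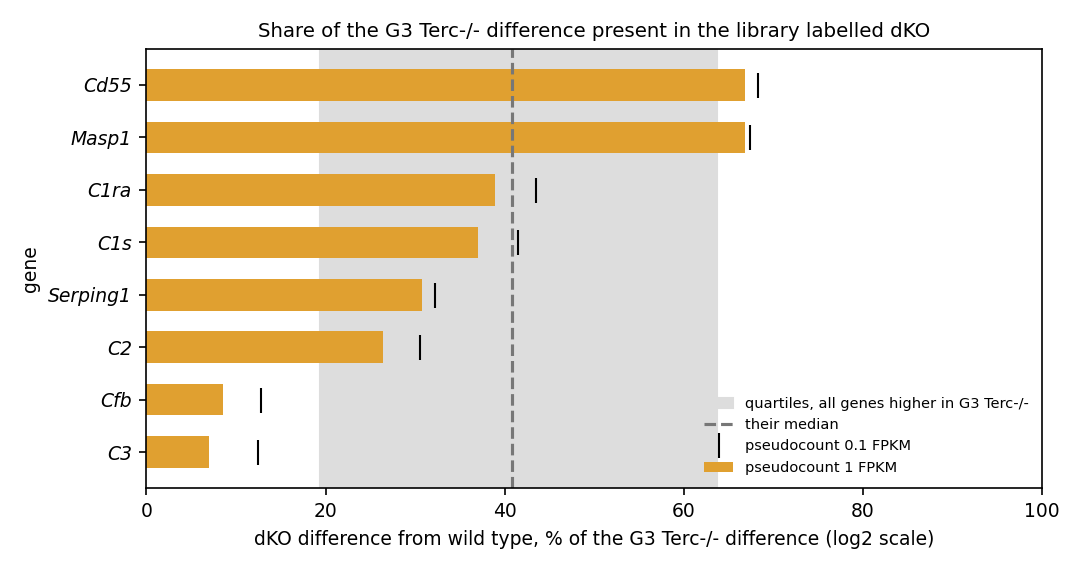
Difference of the library labelled dKO from wild type as a percentage of the difference of the G3 Terc-/- library from wild type, for the 8 complement genes past the size rule (bars, pseudocount 1 FPKM; ticks, pseudocount 0.1 FPKM). The grey band and dashed line give the quartiles and median of the 1282 genes higher in the G3 Terc-/- library, with a pseudocount of 1 FPKM. By their bars, C3 and Cfb lie below the band and Masp1 and Cd55 just above it.

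The summed FPKM of the 9 genes was 24.6 in wild type, 33.6 in the library labelled Gadd45-/-, 278 in the G3 Terc-/- library and 68.7 in the library labelled dKO. The make-up of that sum differed as well. Serping1 led in the G3 Terc-/- library with 25.2%, followed by Cd55, C3 and C1s. Cd55 led in the library labelled dKO with 38.1%, followed by Masp1, Serping1 and C1s, while C3 was eighth there, as in wild type and the library labelled Gadd45-/-. C4b was last in every library.

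Of 51 other complement genes listed, all were found, but 37 stayed below 1 FPKM in every library and 8 had a mean of 1 or more. Against wild type 5 of 51 were higher in the G3 Terc-/- library and none lower, where 5.7% of all genes were higher. Of the 8 with a mean of at least 1 FPKM, 4 were higher, where 9.93% of all genes at that mean were. The genes were listed with earlier results known and no count was tested, so neither is a result about complement genes as a class. Among them were the C1r-like protease gene C1rl (1.08 FPKM in the wild-type library and 5.56 FPKM in the G3 Terc-/- library), the fluid-phase regulator Clu (3.93 and 14.2 FPKM), and Cd59a and Cd59b, which encode blockers of the membrane attack complex (2.59 and 14.7 FPKM; 0.433 and 2.57 FPKM). Genes of the terminal pathway were nearly silent. Hc (encoding C5), C6, C7, C8a, C8b and C9 did not exceed 0.160 FPKM, and C8g reached 1.15 FPKM in the G3 Terc-/- library. Factor D, Cfd, which activates factor B, was listed at 0 in all libraries.

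The membrane regulator Cd59a had its highest value in the library labelled dKO. Its values were 2.59 FPKM in the wild-type library, 2.93 FPKM in the library labelled Gadd45-/-, 14.7 FPKM in the G3 Terc-/- library and 24.5 FPKM in the library labelled dKO. Like Cd55 it was high in both G3 libraries. Of the 51 it was the 1 gene past the rule between the library labelled dKO and the library labelled Gadd45-/- (difference 2.70). Over all genes 1.33% were higher and 1.29% lower in that comparison. The rodent C3 regulator Cr1l (Crry) had values of 21.7, 18.4, 13.1 and 18.0 FPKM across those libraries, lowest where C3 was highest, with no difference past the rule. The collectin Colec12 (35.9, 40.4, 67.3 and 59.2 FPKM), properdin, Cfp (1.82, 1.02, 1.31 and 2.81 FPKM), and C1qbp, a mitochondrial protein that binds C1q (111, 109, 67.6 and 73.1 FPKM), were also within it. Against the G3 Terc-/- library, Clu was the 1 of 51 lower in the library labelled dKO (all genes 2.79%), at 5.03 against 14.2 FPKM.

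The C1q chains had their lowest values in the library where the 9 genes had their highest. C1qa, C1qb and C1qc, which together form the recognition part of C1, were listed at 0 in the G3 Terc-/- library and stood at 2.17, 1.87 and 1.95 FPKM in the library labelled dKO. They were at 0.292 to 0.361 FPKM in the wild-type library and 0.765 to 0.934 FPKM in the library labelled Gadd45-/-. Of the 51 other complement genes, these were the 3 higher in the library labelled dKO than in the G3 Terc-/- library (all genes 0.853%). With Cd59a they were the 4 of 51 higher in that labelled dKO than in wild type (all genes 2.03%). No count was tested. Macrophages are a main source of C1q, and most of their markers were highest in the same library. Their 11 genes summed to 6.56 FPKM in the wild-type library, 7.73 FPKM in the library labelled Gadd45-/-, 9.97 FPKM in the G3 Terc-/- library and 22.4 FPKM in the library labelled dKO. Of the 11, 9 were highest in the library labelled dKO, among them Lyz2 at 11.5 FPKM and Tyrobp at 1.52 FPKM. Under 0.1 FPKM were 6 in the G3 Terc-/- library, 3 in wild type, 4 in that labelled Gadd45-/- and 1 in that labelled dKO. Ptprc was under 0.1 FPKM in every library. Aif1 and Tyrobp were listed at 0 in the G3 Terc-/- library, but Aif1 also in the library labelled Gadd45-/-. Cd14 was highest in the G3 Terc-/- library, at 3.998 FPKM against 0.792 FPKM in wild type. Csf1r, Cd68 and Lyz2 also lay above wild type there. In bulk RNA fewer cells of a type and less RNA per cell cannot be told apart.

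**Figure D4:**
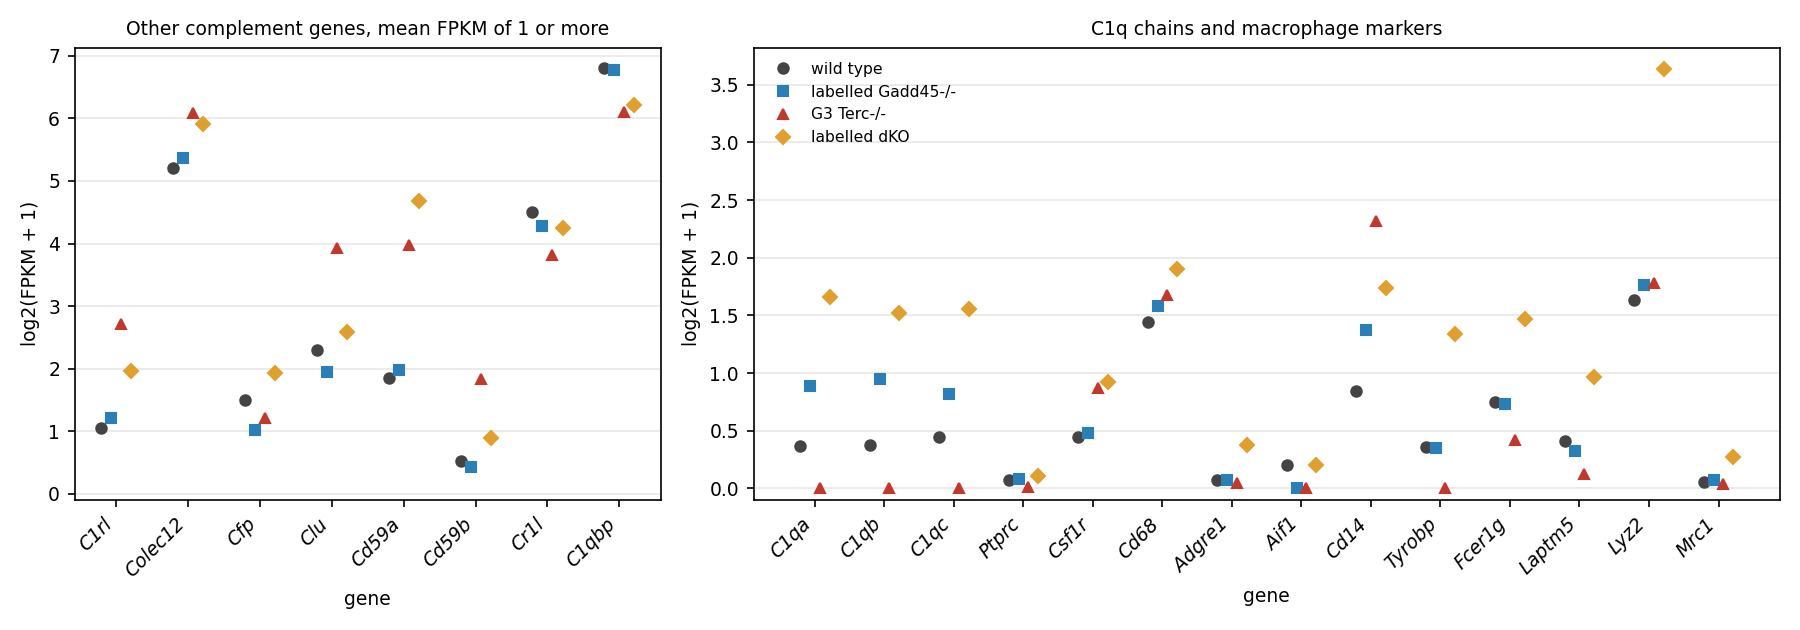
Level as log2(FPKM + 1) in each library, left for the 8 other complement genes with a mean of 1 FPKM or more, right for the C1q chains and all 11 macrophage markers (Adgre1 is listed as Emr1). Cd59a and the C1q chains are highest in the library labelled dKO (diamonds), where Lyz2 stands at 11.5 FPKM, and the C1q chains lie at 0 in the G3 Terc-/- library (triangles).

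Markers of other cells that make complement did not all stay level. The hepatocyte list summed to 15.2 FPKM in the wild-type library and 1.95 to 5.01 FPKM in the others, with Alb at 5.40 FPKM in the wild-type library, where 6 of the 9 complement genes had their lowest value. The adipocyte list summed to 33.0 FPKM in the G3 Terc-/- library and 6.18 to 8.62 FPKM in the others. Fabp4 made up 32.2 FPKM of it, while Plin1, Lep and Cidec were listed at 0 everywhere and Adipoq did not exceed 0.0975 FPKM. The neutrophil list summed to 5.18 FPKM in the G3 Terc-/- library and at most 0.170 FPKM in the others, from S100a8 (2.96 FPKM) and Camp (2.18 FPKM), with S100a9, Ngp and Elane at 0. Endothelial markers summed to 1.34 to 2.01 FPKM, and epithelial markers to 8.62 FPKM in the wild-type library and 1.67 to 2.64 FPKM in the others. The part of these cells in the complement values was not tested.

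Cytokines and transcription factors known to induce complement genes were listed separately. Of 15, 6 were higher in the G3 Terc-/- library than in wild type, and the same number lower in the library labelled dKO than in the G3 Terc-/- library. Among all genes 5.7% were higher in the first comparison and 2.79% lower in the second, and among genes averaging at least 1 FPKM 9.93% and 4.78%. The largest differences were those of interleukin-6, Il6 (0.870, 2.1, 40.2 and 4.77 FPKM in the wild-type library, the library labelled Gadd45-/-, the G3 Terc-/- library and the library labelled dKO), the transcription factor Cebpd (15.2, 16.8, 140 and 33.8 FPKM) and the cytokine Lif (4.23, 5.03, 41.9 and 3.27 FPKM). Il1a, also among the 6, stood at 0.0289, 0.0283 and 2.15 FPKM and was listed at 0 in the library labelled dKO. Il1b and Ifng were listed at 0 in all libraries, and Tnf did not exceed 0.0354 FPKM.

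Likeness to C3 was measured as the Euclidean distance between the differences of the other libraries from wild type, over 4 libraries and 11581 candidate genes with a mean of at least 1 FPKM. Steap4, a metalloreductase gene, was nearest at a distance of 0.298 (0.105, 0.0170, 36.9 and 0.563 FPKM in the order above). The protease Mmp3 (distance 0.755), the chemokines Ccl8 (0.792) and Cxcl3 (0.900) and the interferon regulator Irf7 (0.922) followed. The genes nearest to Serping1 were Gbp2, an interferon-induced GTPase gene (0.0987), Trim30d (0.145), the semaphorin Sema3c (0.231), I830012O16Rik (0.238) and Mndal (0.240). Gbp2 stood at 1.41, 1.78, 24.5 and 4.32 FPKM. Within the group, the shortest distance was that of Serping1 and C1ra (0.755), and C3 and C4b lay farthest apart (4.68).

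Several of the genes are neighbours on the RefSeq assembly GRCm38.p6, which is not the build of the files. For the neighbours it gave gene order only. Cfb and C2 adjoin on chromosome 17, as do C1ra and C1s, with C1rl beside them, on chromosome 6. Within 3 protein-coding genes on either side of the 9, 41 other genes with values were found, a set chosen after values were seen. Of these, 7 were higher in the G3 Terc-/- library than in wild type (all genes 5.7%), and their median was 0.04. Nelfe and Zbtb12, which flank Cfb and C2, differed by -0.16 and -0.22, against 2.75 and 1.40 for Cfb and C2. Beside Serping1, Ube2l6, which encodes the conjugating enzyme for ISG15, stood at 5.11 FPKM in the wild-type library and 45.2 FPKM in the G3 Terc-/- library. Rtp4, beside Masp1, stood at 1.76 and 30.6 FPKM, a larger difference (3.52) than that of Masp1 itself.

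RefSeq promoter windows, from 250 bases before to 50 after a listed start, were at hand for 4 of the 9 genes (C3, C1s, C1ra and Cd55), in build GRCm38.p6. Both strands were searched for motifs of inflammatory and interferon signalling, whose letters were settled after the values and windows had been seen. They were TTGCGNAA for C/EBP factors, GGGNNTTCC for NF-kB, GAAANNGAA for the interferon-stimulated response element and TTCNNNGAA, which reads the same on both strands, for STAT factors. The TATA box was searched as TATAAA. The windows of C3, C1ra and Cd55 are shown because each held a match. Matches are in capitals, each written 5′ to 3′ on the gene's strand: C3 on the minus strand at chr17:57228087-57228386, C1ra on the plus strand at chr6:124512371-124512670 and Cd55 on the minus strand at chr1:130462695-130462994.
C3: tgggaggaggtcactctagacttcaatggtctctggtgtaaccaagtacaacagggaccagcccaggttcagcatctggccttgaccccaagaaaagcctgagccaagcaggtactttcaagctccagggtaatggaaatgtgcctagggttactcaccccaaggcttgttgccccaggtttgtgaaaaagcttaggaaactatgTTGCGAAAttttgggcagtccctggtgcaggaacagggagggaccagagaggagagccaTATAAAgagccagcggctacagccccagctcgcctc
C1ra: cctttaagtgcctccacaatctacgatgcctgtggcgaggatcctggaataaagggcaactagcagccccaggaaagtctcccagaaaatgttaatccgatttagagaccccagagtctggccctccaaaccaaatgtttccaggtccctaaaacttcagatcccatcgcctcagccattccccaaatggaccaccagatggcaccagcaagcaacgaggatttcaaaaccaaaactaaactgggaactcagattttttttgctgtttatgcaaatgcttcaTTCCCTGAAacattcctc
Cd55: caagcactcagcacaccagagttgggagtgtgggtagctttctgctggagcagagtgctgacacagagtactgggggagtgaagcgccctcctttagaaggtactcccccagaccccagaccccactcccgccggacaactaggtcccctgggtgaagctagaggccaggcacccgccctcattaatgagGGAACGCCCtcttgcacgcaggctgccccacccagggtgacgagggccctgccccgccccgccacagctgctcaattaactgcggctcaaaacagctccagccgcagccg
The C3 window held TTGCGAAA from 45 to 38 bases before the listed start and TATAAA from 15 to 20 bases after it. The C1ra window held TTCCCTGAA from 33 to 41 bases after its start. The Cd55 window held GGAACGCCC, a match to the NF-kB letters on the opposite strand, from 60 to 52 bases before its start. Neither listed start of C1s had a match to any motif. Over the 32851 windows of the table, 0.798% held the C/EBP letters, 5.82% those of NF-kB, 8.56% the interferon element, 8.3% the STAT letters and 13.6% the TATA box. A match describes the letters only, and nothing was measured of any factor at these windows.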

How the data were processed

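RNA of 4 cultures of primary mouse embryo fibroblasts, 1 per genotype, was polyA-selected after DNase treatment, sheared and reverse-transcribed with random primers, per the labels' protocols. Each deposited file lists the authors' FPKM, 1 value per symbol. TopHat2 2.1.1, Cufflinks 2.2.1 and mm9 are named, without roles, in the submitters' processing notes. Annotation, strand setting and filters are not given in the sources used here.

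Of 23235 symbols, 736 of short non-coding RNA were left out and 22499 compared. Differences used log2(FPKM + 1), with a size rule of 1, which understates ratios of low genes. With 1 library per genotype nothing was tested. Depth was estimated from genes with 1 GENCODE M21 transcript of 1500 to 8000 nt and FPKM up to 0.05, a fragment length of 200 nt being taken off. At the best depth, itself chosen to fit them, 78.2% to 83.9% of these values lay within 0.1 of a whole fragment. Estimated fragments of a gene used its longest coding transcript. Ratio intervals are exact binomial (Clopper-Pearson) intervals on these fragments and cover counting error only.

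The genes, the lists of other complement genes, inducers and cell type markers were chosen with earlier results of these data known. Named are the 9 genes, other complement genes averaging at least 1 FPKM, the 5 symbols nearest to C3 and to Serping1, up to 3 inducers, and copies and markers. C8g, the C1q chains, other terminal-pathway genes, Cfd, Il1a, Il1b, Ifng, Tnf and the neighbours were named after their values were seen. Some results that the lists hold are not reported here. Functions were first tested on simulated libraries. Python 3.11.15, NumPy 2.4.6, pandas 2.3.3 and SciPy 1.17.1 were used.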

Additional observations from a re-analysis of the deposited data

Results flagged for a closer look

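For 6 of the 9 genes the library labelled Gadd45-/- lay above wild type while the library labelled dKO lay below the G3 Terc-/- library. All 9 lay below in the second comparison, so the 6 reflects only the sign of the first. How many of all genes had such opposite signs was not counted. The difference between the differences of these comparisons (double difference) was not tested, since each rests on single libraries. The double difference on the log2(FPKM + 1) scale was -3.25 for C1s, -2.54 for Serping1, -1.92 for C1ra, -1.25 for Cd55, -1.04 for Masp1 and -0.50 for C4b. It was negative without opposite signs too, at -4.64 for C3, the largest of the group, -2.25 for Cfb and -0.81 for C2. For Cd55, Serping1 and C4b the difference of the library labelled Gadd45-/- from wild type was within counting error. For Masp1 the G3 libraries also lay on opposite sides of their Terc-proficient counterparts, at 1.03 and -0.0085, the latter within counting error and of opposite sign after both scalings.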

How the results depend on the processing

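Counts of the 9 genes past the size rule stayed within 1.5 times the reported ones under a pseudocount of 0.1 FPKM, median-of-ratios scaling, quantile normalization, a mean FPKM of at least 1, and summing with near-identical copies, with 1 exception. With a pseudocount of 0.1 FPKM, 4 in place of 1 were higher in the library labelled dKO than in the library labelled Gadd45-/-. That pseudocount also raised the counts of other complement genes, to 6 (library labelled Gadd45-/- and wild type), 14 (G3 Terc-/- and wild type), 13 (dKO and G3 Terc-/-), 13 (dKO and Gadd45-/-) and 15 (dKO and wild type), as low genes then pass. Over all 22499 symbols the counts rose as well. In the same order, they became 373 higher and 447 lower, 2705 and 1438, 732 and 1624, 1241 and 790, and 1444 and 997. Of 45 single differences, 21 moved beyond counting error with that pseudocount, none changing sign. Near the rule, C2 (dKO and G3 Terc-/-) no longer passed it under either scaling, nor Masp1 (G3 Terc-/- and wild type) and C1ra (dKO and wild type) under quantile normalization. Both scalings kept all 45 within their counting ranges and turned the sign of 1, Masp1 between the libraries labelled dKO and Gadd45-/- (0.0099 and 0.034). No replicate could be left out. No paired analysis was possible because each genotype had 1 library.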
